A study of Mus musculus with 2 samples.

Results

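A set of 10 genes of cell-cell junctions were read across the cell classes of the mouse yolk sac. They were the cadherins Cdh1 (E-cadherin), Cdh2 (N-cadherin) and Cdh5 (VE-cadherin), the claudins Cldn5, Cldn6 and Cldn7, the tight junction protein occludin (Ocln), the epithelial adhesion molecule Epcam, and the immunoglobulin-type proteins Pecam1 and Esam of endothelial contacts. They were named as a list of genes, with earlier results of these data known, so the list is not independent of the values below. All 10 had a row among the 30970 gene rows. The tissue was yolk sac of stage E8.75, dissociated, tagged per sample with CellPlex oligonucleotides and pooled for droplet sequencing. All cells had 1 genotype, Ttr-Cre/+; R26lsl-rtTA-EGFP/+, a Cre recombinase under the Ttr promoter, which drives expression in visceral endoderm, with a Cre-dependent rtTA and EGFP allele at the Rosa26 locus. No sample was treated, and there was no group without these alleles. The design text gives 3 yolk sacs from 3 embryos, and the 3 tagged samples are the replicates here. Whether each tag marks 1 embryo was not tested.

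Cells were assigned to 4 classes from the share of their unique molecular identifiers (UMIs, each counted as 1 captured transcript) in genes that are not among the 10. Endoderm cells, the epithelial outer layer of the visceral yolk sac, had at least 0.3% of UMIs in Ttr, Apob and Apom. Erythroid cells had at least 3% in 7 globin genes, endothelial cells at least 0.04% in Ctla2a, Plvap and Kdr with at most 1 Foxf1 UMI, and mesoderm cells at least 0.03% in Hand1, Vcan and Foxf1. Of 1817 deposited cells, 559 were endoderm, 201 mesoderm, 96 endothelium and 629 erythroid. A further 77 failed the filters, 48 passed 2 gates and were dropped, and 207 passed none. Summed over cells, the 12 class sums held 792763 UMIs or more, and median depth was 56323 UMIs per cell in endoderm, 34959 in mesoderm, 31826 in endothelium and 47773 in erythroid cells. Markers outside the gates (10 per class, 9 of them with a row for erythroid cells) were all highest in their own class. A list of 10 blood progenitor and megakaryocyte genes was highest in the endothelium class, at 126.5 to 283.8 CPM against 24.6 to 92.7 CPM elsewhere, with Ptprc at 0 there, and its part in the endothelial values was not tested. The erythroid cells were led by globin transcripts by construction, since the gate used them.

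Cadherins bind like to like between neighbouring cells and are tied to the actin cytoskeleton through catenins, forming adherens junctions. Claudins and occludin span the membrane at tight junctions, which seal the space between epithelial or endothelial cells and set what passes between them. The visceral endoderm of the yolk sac is a polarized absorptive epithelium, the mesoderm beneath it gives rise to mesothelium, vessels and blood, and the primitive erythroid cells are loose cells in the blood islands.

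The promoters of the 3 claudins and of Epcam are shown because these genes split between endoderm and endothelium in the results that follow. RefSeq windows on GRCm38 were found for 5 of the 10 genes, and the 250 bases before the annotated start are given 5′ to 3′ on the gene's own strand. Cldn5 lies at chr16:18776597-18776846, Cldn6 at chr17:23679115-23679364, Cldn7 at chr11:69964529-69964778 and Epcam at chr17:87635729-87635978, all on the plus strand. Capitals mark matches on either strand to the GC box, GGGCGG, which reads CCGCCC on the other strand, and to the E-box, CACCTG, which reads CAGGTG on the other strand, the core letters read by Snail and Zeb factors.
Cldn5: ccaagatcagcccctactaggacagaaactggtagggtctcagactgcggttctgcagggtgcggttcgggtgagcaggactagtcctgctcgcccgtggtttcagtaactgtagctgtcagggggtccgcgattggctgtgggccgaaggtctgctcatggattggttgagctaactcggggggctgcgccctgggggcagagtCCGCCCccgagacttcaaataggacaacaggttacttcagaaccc
Cldn6: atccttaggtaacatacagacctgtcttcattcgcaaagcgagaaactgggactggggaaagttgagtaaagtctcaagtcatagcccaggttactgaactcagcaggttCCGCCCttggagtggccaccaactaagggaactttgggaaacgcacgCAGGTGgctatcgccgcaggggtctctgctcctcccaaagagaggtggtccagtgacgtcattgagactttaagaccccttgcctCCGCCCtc
Cldn7: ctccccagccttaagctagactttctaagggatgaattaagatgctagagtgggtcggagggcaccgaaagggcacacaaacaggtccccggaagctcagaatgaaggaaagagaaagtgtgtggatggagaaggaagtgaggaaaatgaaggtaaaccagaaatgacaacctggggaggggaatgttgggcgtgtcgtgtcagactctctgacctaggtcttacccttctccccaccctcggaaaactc
Epcam: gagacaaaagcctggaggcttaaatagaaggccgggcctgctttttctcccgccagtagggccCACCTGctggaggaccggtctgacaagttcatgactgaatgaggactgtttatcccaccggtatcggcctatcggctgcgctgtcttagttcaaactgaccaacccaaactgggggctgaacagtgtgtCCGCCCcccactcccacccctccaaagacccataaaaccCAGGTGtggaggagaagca
The Cldn5 window held a GC box 45 bases before the start and no E-box. The Cldn6 window held GC boxes 140 and 8 bases before the start and an E-box at 93. By GENCODE annotation Cldn6 starts at 23679249, inside this window, so the matches at 93 and 8 lie past that start. The Epcam window held 1 GC box, at 58 bases, and E-boxes at 187 and 19. Neither motif was in the Cldn7 window, 1 of 2 windows listed for that gene. The fifth matched gene, Ocln (chr13:100552719-100552968, minus strand, 1 of 2 windows listed for it), had 1 GC box, 112 bases before its start. Among 32851 windows of this length, 32.7% held the GC box and 17.2% the E-box, so these matches are a description of the sequences only. By GENCODE annotation of the same build, 4 other genes are Cdh1 (chromosome 8, 106603351 to 106670246), Cdh5 (chromosome 8, 104101625 to 104144511), Pecam1 (chromosome 11, 106654217 to 106750628) and Esam (chromosome 9, 37528078 to 37538319), and the position of Cdh2 is not given here. The counts were made per gene and do not separate exons or isoforms.

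Of the 10 genes, 5, Cdh1, Cldn6, Cldn7, Epcam and Ocln, were highest in endoderm in each of the 3 tagged samples. Cdh5, Cldn5, Pecam1 and Esam were highest in endothelium, and Cdh2 was highest in mesoderm. Levels are given as CPM, the UMIs of a gene per 1000000 gene UMIs of the summed class, for tagged samples 1, 2 and 3 in that order, and are compared between classes for 1 gene, not between genes.

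**Figure D1:**
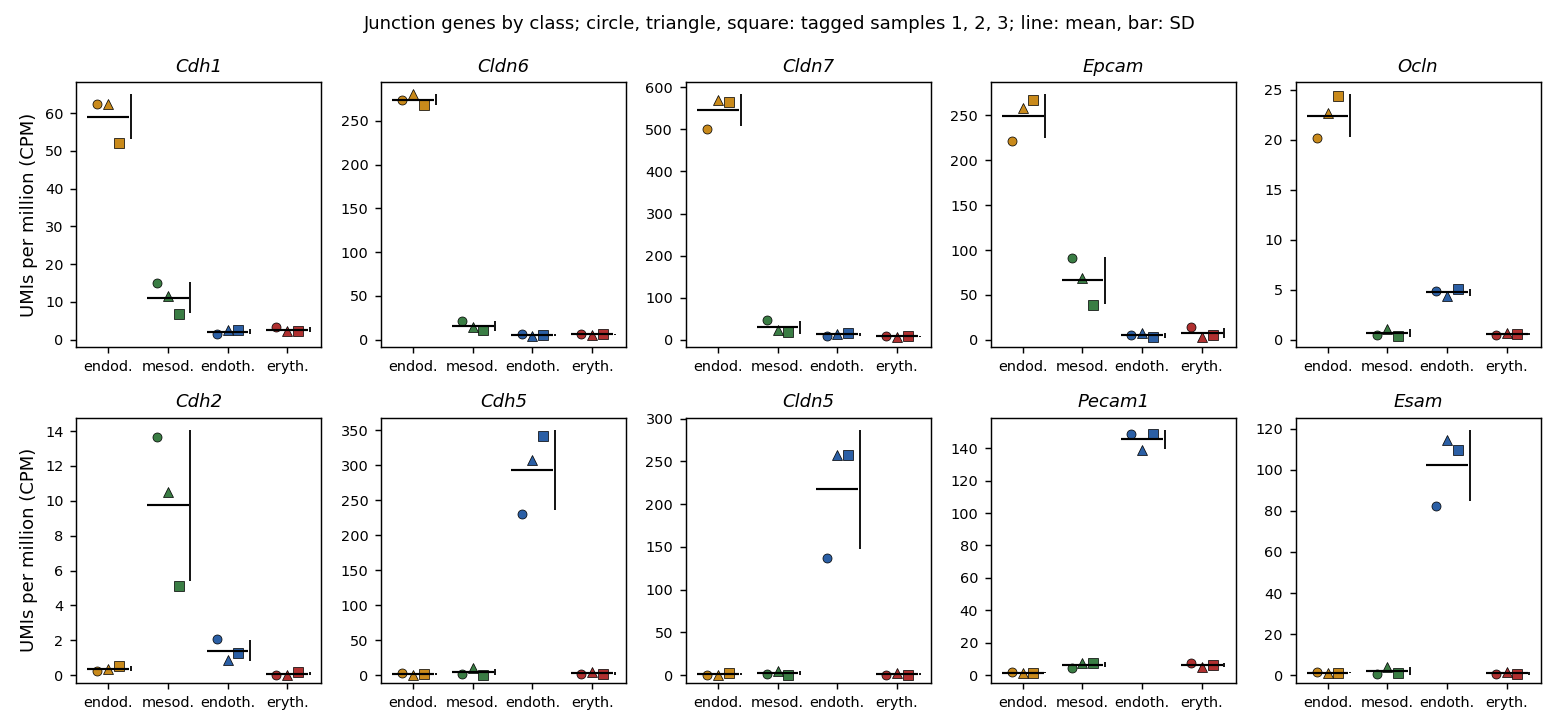
Level of each junction gene (y axis, CPM, linear) in the 4 classes (x axis), with 1 point for each of the 3 tagged samples, a line at the mean and a bar of 1 SD. The upper 5 genes stand highest in endoderm, Cdh2 in mesoderm and the remaining 4 in endothelium. Mesoderm is the next highest class for Cdh1, Cldn6, Cldn7 and Epcam, with Epcam at 39.0 to 91.0 CPM there, and endothelium is the next highest for Ocln.

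E-cadherin, the classic cadherin of epithelia, had 62.5, 62.4 and 52.2 CPM in endoderm and 15.0, 11.6 and 6.78 CPM in mesoderm. It had 1.40, 2.62 and 2.52 CPM in endothelium and 3.48, 2.32 and 2.20 CPM in erythroid cells. Endoderm stood above mesoderm and mesoderm above the other two classes in every tagged sample, while endothelium and erythroid cells overlapped. Relative to endoderm, Cdh1 was lower by a log2 difference of -2.65 (SE 0.20) in mesoderm, -4.90 (SE 0.28) in endothelium and -4.38 (SE 0.15) in erythroid cells, with adjusted p of 5.59e-07, 4.12e-09 and 2.73e-10 by edgeR's quasi-likelihood test (n = 3 sums per class).

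Claudin 6, a claudin of embryonic epithelia, had 274.4, 280.2 and 268.1 CPM in endoderm, a spread of 6.04 (SD) around a mean of 274.2. In mesoderm it had 21.4, 14.2 and 11.02 CPM, against 4.36 to 6.29 CPM in endothelium and 5.28 to 6.67 CPM in erythroid cells. The endoderm values did not overlap with any other class, and the endothelial and erythroid ranges overlapped. The log2 difference from endoderm was -4.39 (SE 0.16) in mesoderm, -5.77 (SE 0.16) in endothelium and -5.28 (SE 0.10) in erythroid cells, and all 3 passed the test. Claudin 7, found at tight junctions and along the basolateral membrane of epithelia, followed with 501.0, 569.0 and 564.8 CPM in endoderm and 47.3, 23.2 and 17.4 CPM in mesoderm. Its ranges were 8.39 to 15.1 CPM in endothelium and 7.69 to 9.73 CPM in erythroid cells, again with an overlap of these 2 classes alone. Cldn7 was lower than in endoderm by -4.48 (SE 0.25), -5.60 (SE 0.16) and -5.79 (SE 0.10) on the log2 scale in mesoderm, endothelium and erythroid cells.

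Epcam, a membrane protein that binds and stabilizes claudin 7, had 221.7, 258.1 and 267.6 CPM in endoderm and 91.0, 68.5 and 39.0 CPM in mesoderm. Endothelium had 4.89, 7.85 and 2.52 CPM and erythroid cells 13.9, 3.52 and 5.54 CPM, with 34 of the 191 erythroid UMIs in 1 cell, so these classes overlapped with each other and not with mesoderm. The mesoderm level was 26.2% of the pooled endoderm level, against 5.58% for Cldn6 and 5.21% for Cldn7. The log2 difference of Epcam from endoderm was -2.16 (SE 0.22) in mesoderm, -5.63 (SE 0.21) in endothelium and -5.11 (SE 0.26) in erythroid cells.

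Occludin differed from the other epithelial genes in the order of the lower classes. It had 20.1, 22.7 and 24.4 CPM in endoderm, then 4.89, 4.36 and 5.05 CPM in endothelium, from 7, 5 and 4 UMIs. Mesoderm had 0.455, 1.12 and 0.424 CPM, from 1, 3 and 1 UMIs, and erythroid cells 0.463 to 0.648 CPM. Every endothelial value thus stood above every mesoderm and erythroid value, and mesoderm and erythroid cells overlapped. Ocln was lower than in endoderm by -5.22 (SE 0.32) in mesoderm, -2.32 (SE 0.27) in endothelium and -5.00 (SE 0.21) in erythroid cells, and the mesoderm value was -5.81 without tagged sample 2. Between endothelium and mesoderm it fell under the low-count filter. The ratio of the pooled levels, 16 against 5 UMIs, was 6.86, with an interval of 2.40 to 24.0 that covers counting error only, and a fit without the filter gave a log2 difference of 2.77 (SE 0.79, edgeR adjusted p = 0.00308).

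**Figure D2:**
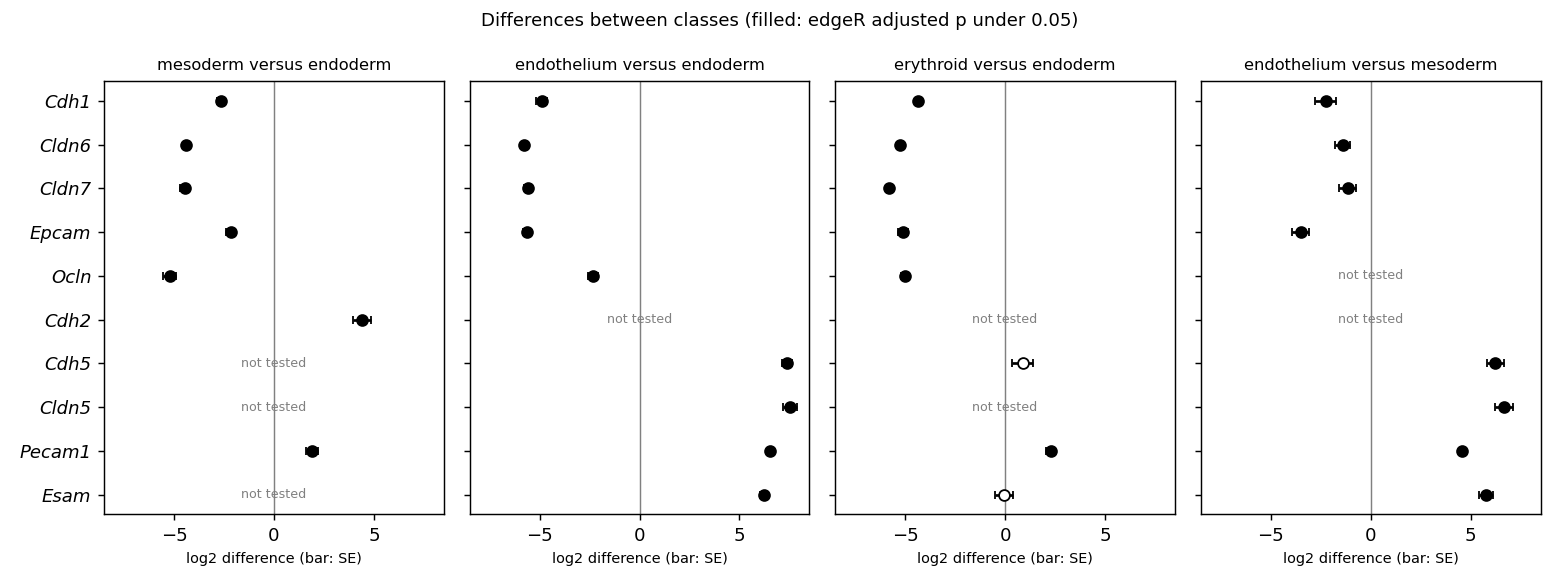
Log2 difference between 2 classes (x axis, edgeR, with SE) for each of the 10 genes (y axis) in the 4 comparisons, with filled points where the adjusted p was under 0.05 and open points where it was not. Cdh1, Cldn6, Cldn7, Epcam and Ocln lie left of 0 in the 3 comparisons with endoderm, with Ocln at -2.32 in endothelium; Cdh5 and Esam are the open points, in erythroid cells.

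Free RNA in droplets can give cells a few UMIs of genes they do not express. The lower levels were set beside those of endoderm markers outside the gate (Afp, Amn, Apoa1 and 7 others). In erythroid cells these 10 markers had 1.46 to 2.86% of their endoderm level, with a median of 2.02%. Cldn7 stood there at 1.54% of its endoderm level, Cldn6 at 2.22%, Epcam at 2.39%, Ocln at 2.65% and Cdh1 at 4.05%, so Cdh1 alone lay above the range of the markers. In endothelium the markers had 1.91 to 8.43%, median 2.28%, with Lgmn at the upper end, and with Cldn6 at 1.94%, Epcam at 2.13%, Cldn7 at 2.16% and Cdh1 at 3.49%. Ocln, at 21.1% of its endoderm level, lay outside that range. In mesoderm the markers had 1.73 to 9.23%, median 2.62%, and Epcam and Cdh1, at 26.2% and 18.6%, were above it. Cldn6, Cldn7 and Epcam in erythroid and endothelial cells thus lay within the marker ranges, and the part of free RNA in their levels was not tested.

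VE-cadherin, the cadherin of endothelial adherens junctions, had 229.9, 308.0 and 341.8 CPM in endothelium. It had 2.91, 0.907 and 1.42 CPM in endoderm, 1.36, 10.1 and 0 CPM in mesoderm and 1.16, 4.72 and 1.61 CPM in erythroid cells. The lowest endothelial value was far above all others, and the 3 remaining classes overlapped. The log2 difference was 7.37 (SE 0.24, edgeR adjusted p = 1.95e-11) from endoderm and 6.23 (SE 0.43, edgeR adjusted p = 3.20e-07) from mesoderm. The latter rests on 30 mesoderm UMIs, 27 of them in tagged sample 2, and was 8.73 without tagged sample 2 and 5.55 without tagged sample 3. The former was 8.02 without tagged sample 1. Claudin 5, the main claudin of vascular tight junctions, had 137.0, 257.4 and 257.3 CPM in endothelium, at most 4.87 CPM in a mesoderm sample, 2.18 in endoderm and 2.96 in erythroid cells. Its values in tagged sample 1 were the lowest of the endothelial 3, as were those of Cdh5 and Esam. The log2 difference of Cldn5 was 7.54 (SE 0.33) from endoderm and 6.67 (SE 0.43) from mesoderm. The value against mesoderm was 8.18 without tagged sample 2 and 5.98 without tagged sample 3, and that against endoderm 8.20 without tagged sample 3.

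Pecam1 (CD31), an adhesion receptor at endothelial contacts that is also carried by some blood cells, had 148.9, 138.7 and 148.8 CPM in endothelium. In contrast to Cdh5, its lower classes separated, with 4.55, 7.49 and 7.21 CPM in mesoderm and 7.65, 5.28 and 6.20 CPM in erythroid cells against 1.79, 1.32 and 1.31 CPM in endoderm. Mesoderm and erythroid cells overlapped with each other and lay above endoderm in every tagged sample. Pecam1 was higher than in endoderm by 6.53 (SE 0.17) in endothelium, 1.89 (SE 0.31, edgeR adjusted p = 0.000245) in mesoderm and 2.29 (SE 0.23, edgeR adjusted p = 2.55e-06) in erythroid cells. The 194 erythroid UMIs came from 142 of 629 cells, and the 5 leading cells held 9.28% of them. For Cdh5 the 5 leading erythroid cells held 51.8% of 83 UMIs. Pecam1 stood at 4.47% of its endothelial level in mesoderm and 4.18% in erythroid cells. The 10 endothelium markers outside the gate had 0 to 37.65% in mesoderm, median 5.59%. In erythroid cells they had 0.512 to 17.6%, median 0.907%. The part of free RNA in these Pecam1 levels was not tested.

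Esam, an adhesion molecule of endothelial tight junctions and platelets, had 82.5, 114.3 and 109.7 CPM in endothelium and at most 4.12 CPM in any sample of the other classes, which overlapped. Its log2 difference was 6.24 (SE 0.20) from endoderm and 5.78 (SE 0.35) from mesoderm, the latter 7.15 without tagged sample 2. In erythroid cells against endoderm neither Cdh5 (0.89, SE 0.52, edgeR adjusted p = 0.139) nor Esam (-0.07, SE 0.45, edgeR adjusted p = 0.894) passed the test. Without tagged sample 1 the Cdh5 difference was 1.67 and passed (edgeR adjusted p = 0.0141), and without tagged sample 2 it was -0.31 (edgeR adjusted p = 0.551). It was 0.31 (edgeR adjusted p = 0.504) when cells over the endothelial share were dropped whatever their Foxf1 count. The 2 erythroid cells concerned held 27 of the 83 Cdh5 UMIs, 21 of 44 Cldn5 UMIs and 9 of 32 Esam UMIs, against 7 of 194 Pecam1 UMIs. The 2 such cells in mesoderm held 16 of 30 Cdh5 UMIs, 8 of 16 Cldn5 UMIs and 7 of 14 Esam UMIs. Without them the endothelium difference from mesoderm was 7.28 for Cdh5, 7.61 for Cldn5 and 6.71 for Esam.

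N-cadherin, a cadherin of mesenchyme, heart and nerve cells, had the fewest UMIs of the 10. It had 13.6, 10.5 and 5.09 CPM in mesoderm, from 30, 28 and 12 UMIs, and 2.10, 0.873 and 1.26 CPM in endothelium, from 5 UMIs in all. Endoderm had 0.224, 0.349 and 0.545 CPM and erythroid cells 0, 0 and 0.179 CPM. No 2 classes overlapped. The mesoderm level was above endoderm by a log2 difference of 4.40 (SE 0.47, edgeR adjusted p = 7.80e-06), and 26.2-fold as a ratio of pooled levels (14.1 to 53.1, counting error only). Endothelium against mesoderm was under the filter, and without it the difference was -2.56 (SE 0.57, edgeR adjusted p = 7.99e-05). A few cells carried much of the mesoderm signal. The leading cell held 14 of the 70 UMIs, and 3 mesoderm cells with at least 50 UMIs of the cardiac genes Myl7 and Tnnt2 held 21. Without those 3 cells the pooled mesoderm level was 6.94 CPM, from 49 UMIs. Leaving out cells with these cardiac genes in every class also removed 1 endoderm cell, which held 4 of the 12 endoderm Cdh2 UMIs, and gave a difference of 4.46 (edgeR adjusted p = 2.28e-05). Without tagged sample 3 the difference was 5.01.

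Counts of calls are read against the share of all genes called, because many genes differed between these classes. In mesoderm against endoderm, 63.7% of all tested genes passed (30.6% higher and 33.1% lower), and of the 7 junction genes tested, 2 were higher and 5 lower. In endothelium against endoderm, 58.4% of genes passed (28.4% higher and 30.0% lower), and of 9 junction genes 4 were higher and 5 lower. In erythroid cells against endoderm, 77.8% of genes passed (36.0% higher and 41.8% lower), and of 8 junction genes 1 was higher, 5 were lower and 2 were not called. In endothelium against mesoderm, 33.4% of genes passed (17.8% higher and 15.6% lower), and of 8 junction genes 4 were higher and 4 lower. The genes not tested were under the low-count filter, a filter that depends on the class where a gene is high. The median log2 difference over the tested junction genes was -2.65, -2.32, -4.69 and 1.72 in these 4 comparisons, against -0.02, -0.02, -0.06 and -0.01 over all tested genes. These medians leave out the untested genes. With no filter, Cdh5, Cldn5 and Esam were at 0.94, 0.66 and 0.29 in mesoderm against endoderm. Cdh2 was at 1.71 in endothelium, and Cdh2 and Cldn5 at -1.75 and 0.56 in erythroid cells, against endoderm. In endothelium against mesoderm Cdh2 was at -2.56 and Ocln at 2.77. The medians thus depend on the filter and on the genes listed, and are a description only. The 3 comparisons with endoderm share its sums.

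In single cells the same division was seen. Each cell was thinned to 10000 UMIs, which left out 29 endoderm, 14 mesoderm, 17 endothelial and 6 erythroid cells. A Cldn7 UMI was then present in 98.1% of endoderm cells (95% exact binomial interval 96.6 to 99.1), Cldn6 in 92.8%, Epcam in 90.9%, Cdh1 in 46.8% and Ocln in 20.8%. Unthinned, these shares were 98.4, 97.1, 97.7, 89.3 and 67.3%. In erythroid cells the shares were 9.95, 6.74, 3.69, 3.05 and 0.642% thinned and 32.0, 24.3, 19.7, 9.86 and 3.02% unthinned. In endothelium Ocln was found in 6 of 79 thinned cells, 7.59% (2.84 to 15.8), against the erythroid 0.642% (0.175 to 1.64). These intervals pool cells over tagged samples. By tagged sample the endothelial shares were 3.57, 14.8 and 4.17%, against 0, 0.957 and 0.597% in erythroid cells. At 5000 UMIs per cell they were 3.33, 9.68 and 0%, against 2.5, 0 and 0.595%, so the order did not hold in tagged sample 3. Cdh1 was found in 0 of the 79 endothelial cells thinned to 10000 UMIs, which after thinning allows a share of up to 3.80%, and in 6 of 96 unthinned cells (6.25%).

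In endothelium, thinned cells had a Cdh5 UMI in 89.9% (81.0 to 95.5), Cldn5 in 81.0%, Pecam1 in 75.9% and Esam in 65.8%, and unthinned cells in 92.7, 88.5, 89.6 and 87.5%. In endoderm the same genes were in 0.943, 0.755, 2.26 and 0.943% of thinned cells and in 6.26, 3.22, 6.44 and 6.08% unthinned. In the erythroid class they were in 0.963, 1.12, 5.30 and 0.803% thinned and in 6.68, 3.02, 22.6 and 3.50% unthinned. Pecam1 thus had a higher share in erythroid cells (3.67 to 7.36) than in endoderm (1.17 to 3.92), with slightly overlapping intervals, and the intervals of the other 3 genes overlapped between these classes. Cdh2 was in 5.35% of thinned mesoderm cells (2.59 to 9.61) and 15.9% unthinned, against 0.566% and 1.25% in endoderm. Intervals cover counting error only.

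**Figure D3:**
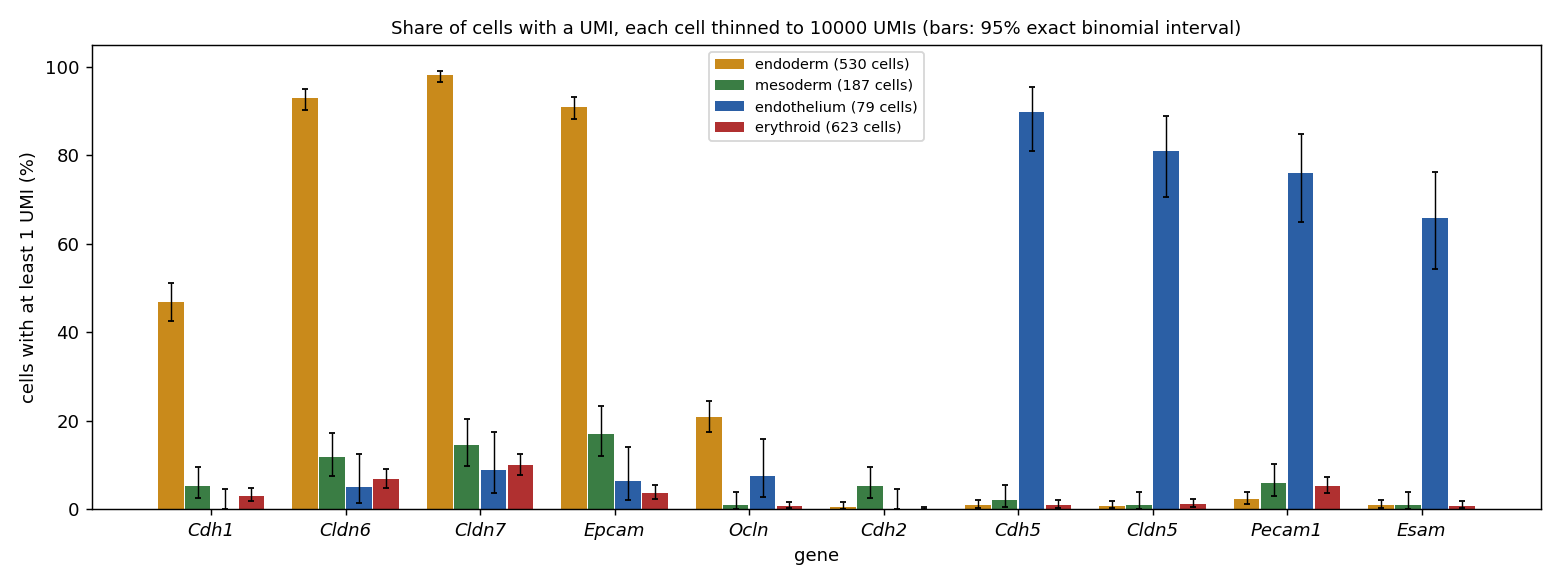
Share of cells with at least 1 UMI of each junction gene (y axis, percent, from 0) after thinning each cell to 10000 UMIs, by class, with 95% exact binomial intervals. Endoderm bars reach 98.1% for Cldn7 and 20.8% for Ocln, endothelial bars lie between 65.8 and 89.9% for Cdh5, Cldn5, Pecam1 and Esam, and the tallest mesoderm bar is 17.1%, for Epcam.

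The genes of each set were found together in the same cells. The sets follow the class levels above, and whether their genes occur together more often than their separate shares give was not tested. At least 3 of Cdh1, Cldn6, Cldn7 and Epcam were present in 89.1% of thinned endoderm cells, and in 5.88% of mesoderm, 0% of endothelial and 0.321% of erythroid cells. At least 3 of Cdh5, Cldn5, Pecam1 and Esam were present in 79.7% of thinned endothelial cells, and in 0.189% of endoderm, 0.535% of mesoderm and 0.321% of erythroid cells. Unthinned, Cldn6 and Cldn7 were both found in 541 of 559 endoderm cells, and Cdh5 and Cldn5 in 81 of 96 endothelial cells. Of the 201 unthinned mesoderm cells, 27 had UMIs of Cdh1 and not Cdh2, 25 of Cdh2 and not Cdh1, and 7 of both, which at these low counts does not show whether the cadherins are used by different cells.

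The mesoderm gate held a minority of cells that carried most of its Epcam, Cdh1, Cldn7 and Cldn6 transcripts. Of the 201 cells, 42 (19, 14 and 9 in tagged samples 1, 2 and 3) had at least 2 UMIs of a trophoblast marker list of 8 genes, which included Krt7, Ascl2, Prl2c2, Prl3d1, Tpbpa, Elf5 and Cdx2, and this split was made after the values had been seen. Prl2c2, Prl3d1 and Tpbpa were at 0 in all mesoderm cells. The cut does not single out trophoblast: 332 of the 559 endoderm cells also passed it, mainly through Cdx2 and Krt7 (799 and 546 UMIs). With Krt8 and Krt18 the list of 10 genes summed to 2314 to 2402 CPM in mesoderm, 895.4 to 1298 in endoderm, 65.4 to 67.8 in endothelium and 41.4 to 53.3 in erythroid cells. Nearly all of the mesoderm sum was Krt8 (1016.9 to 1116.7 CPM) and Krt18 (1220.2 to 1232.5 CPM), which were not used for the cut. A list of 8 surface ectoderm and gut genes also summed to 20.4 to 51.7 CPM in mesoderm against at most 2.32 CPM in the other classes, with Krt5 and Nkx2-1 at 0. Most of it was Wnt6, with 250 UMIs, of which the 42 cells held 78.4%. The part of either cell type in the values below was not tested. The 42 cells held 90.5% of the mesoderm Epcam UMIs, 75.0% of Cdh1, 72.0% of Cldn7 and 61.3% of Cldn6, but 12.9% of Cdh2 and 12.8% of Pecam1. Of the 5 mesoderm Ocln UMIs they held 1. Their pooled Epcam level was 242.7 CPM against 8.25 CPM in the other 159 cells, and their Cdh1 level 33.9 against 3.67 CPM. Cldn6 stood at 38.4 against 7.88 CPM and Cldn7 at 84.1 against 10.6 CPM, well under the endoderm levels of 274.2 and 545.0 CPM. The pooled Epcam level of the 42 cells was near the endoderm mean of 249.1 CPM, but it was not shared evenly by them. Of the gate's own genes, Hand1 was alike in the 2 sets (458.9 and 447.5 CPM), and Vcan (152.4 and 336.1 CPM) and Foxf1 (53.6 and 160.5 CPM) were lower in the 42 cells. These pooled levels average over unlike cells. Of the 42 cells, 27 had an Epcam UMI, 28 a Vcan UMI and 23 a Foxf1 UMI. Cells with over 10 Epcam UMIs had at most 3 Vcan and 2 Foxf1 UMIs. Tagged sample 1, with the most of the 42 cells, also had the highest mesoderm levels of Epcam, Cdh1, Cldn6 and Cldn7, and tagged sample 3 the lowest.

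**Figure D4:**
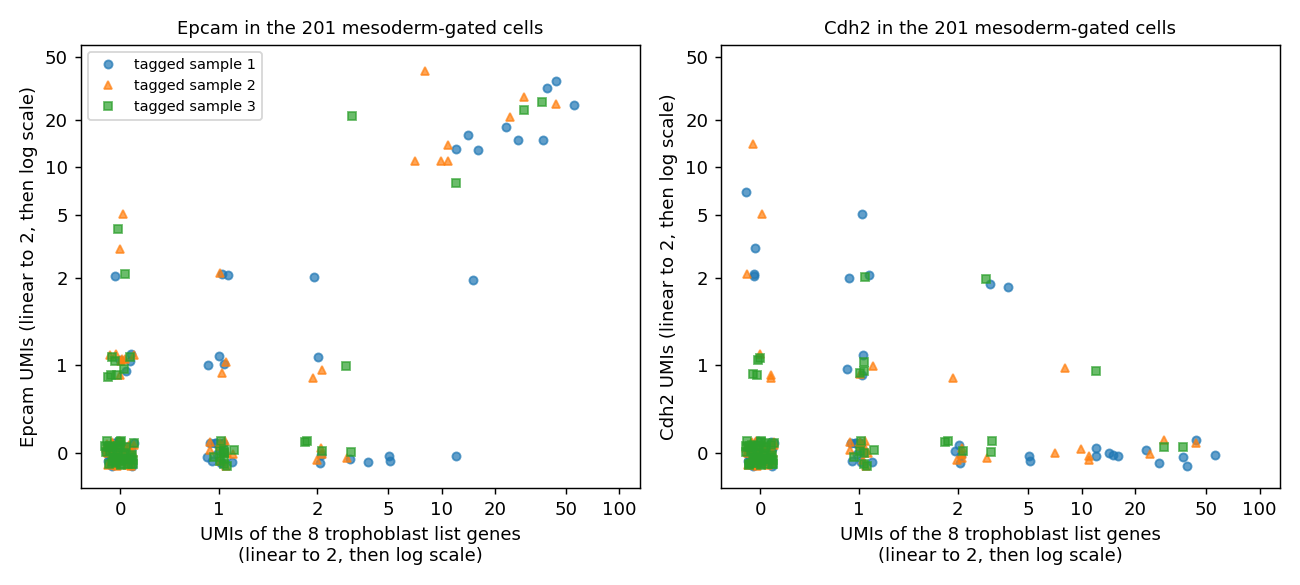
UMIs per cell of Epcam (left, y axis) and Cdh2 (right, y axis) against UMIs of the 8 trophoblast list genes (x axis) in the 201 mesoderm-gated cells; axes are linear to 2 and logarithmic above, and points are spread slightly to part equal values. Cells with over 10 Epcam UMIs lie to the right, among the 42 cells with at least 2 list UMIs that hold 90.5% of the Epcam UMIs, whereas Cdh2 lies mainly at the left.

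Without these 42 cells the mesoderm difference from endoderm became -5.14 (SE 0.16) for Epcam, -4.23 (SE 0.20) for Cdh1, -5.92 (SE 0.20) for Cldn7 and -5.35 (SE 0.13) for Cldn6, and the 2 genes called higher were 4.65 (Cdh2) and 2.11 (Pecam1). In endothelium against mesoderm, leaving these cells out changed calls. With all mesoderm cells, Epcam was lower in endothelium by -3.50 (SE 0.43, edgeR adjusted p = 3.59e-05), Cdh1 by -2.26 (SE 0.51, edgeR adjusted p = 0.00417), Cldn6 by -1.40 (SE 0.38, edgeR adjusted p = 0.0122) and Cldn7 by -1.15 (SE 0.41, edgeR adjusted p = 0.0461). Without the 42 cells none of the 4 was called, with Epcam at -0.53 (edgeR adjusted p = 0.356), Cldn7 at 0.31 (edgeR adjusted p = 0.609), and Cdh1 and Cldn6 under the filter. The Cldn7 call was also lost without tagged sample 1 (-0.40, edgeR adjusted p = 0.372) and without tagged sample 2 (-1.40, edgeR adjusted p = 0.0696), and that of Cldn6 without tagged sample 2 (-1.32, edgeR adjusted p = 0.0793). The 4 genes higher in endothelium were called with and without the 42 cells.

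Beyond the 10 genes, 8 lists of junction genes and of their regulators held 131 genes, 129 with a row, and included the 10. In mesoderm against endoderm 36 of 83 tested were higher and 34 lower, in endothelium against endoderm 27 of 80 higher and 38 lower, in erythroid cells against endoderm 11 of 81 higher and 60 lower, and in endothelium against mesoderm 25 of 65 higher and 30 lower. The shares of all genes given above are the background to these counts. Levels in the next paragraphs are CPM scaled by TMM factors.

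**Figure D5:**
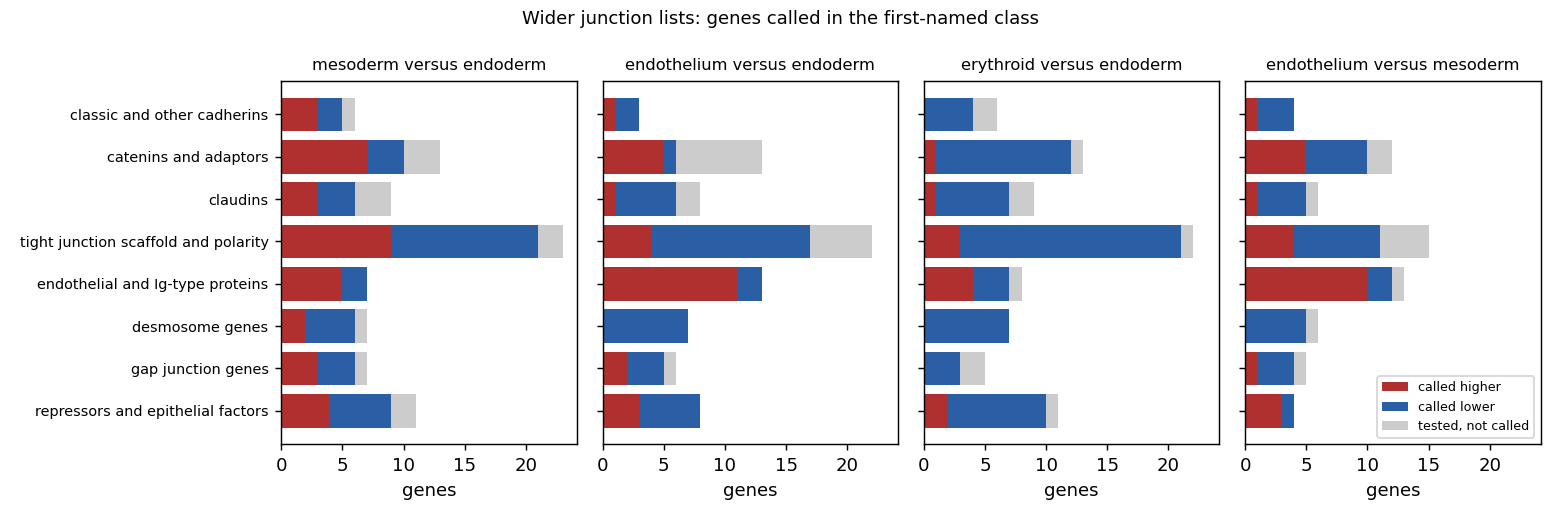
Number of tested genes (x axis) called higher, called lower or not called in the first-named class, for each of 8 junction lists (y axis) in the 4 comparisons. All 7 tested desmosome genes were lower in endothelium and in erythroid cells than in endoderm, against 30.0% and 41.8% of all tested genes. Of the endothelial and immunoglobulin-type genes, 11 of 13 were higher in endothelium than in endoderm, against 28.4% of all tested genes.

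Among other cadherins, Cdh11, a cadherin of mesenchyme, had 86.5 ± 12.2 CPM in mesoderm and 1.15 ± 0.49 in endoderm (SD, n = 3), a log2 difference of 6.17 (SE 0.22). Cdh3 (P-cadherin) was higher in mesoderm by 1.30 (SE 0.18) and had no UMI in endothelium. The claudin list held 25 genes, of which 9 were tested in mesoderm against endoderm, with 3 higher, 3 lower and 3 not called. Of all genes tested there, 30.6% were higher and 33.1% lower. Cldn2, a claudin that forms cation pores, was lower in erythroid cells than in endoderm by -5.59 (SE 0.12).

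Tight junction scaffold and polarity genes went both ways in each comparison with endoderm. Of 23 tested in mesoderm against endoderm 9 were higher and 12 lower, with the scaffold Tjp1 (ZO-1) at 1.88 (SE 0.10) and the multi-domain scaffold Mpdz at 4.60 (SE 0.19), against Crb3, an apical polarity protein, at -4.39 (SE 0.21), and at -5.59 without the 42 cells. In endothelium against endoderm 4 of 22 were higher and 13 lower, with Tjp1 at 2.21 (SE 0.11), Mpdz at 4.15 (SE 0.30) and Crb3 at -5.14 (SE 0.26). In erythroid cells against endoderm 18 of 22 were lower and 3 higher, with Tjp1 at -0.53 (SE 0.10), and Patj, another apical scaffold, was at -5.25 (SE 0.23). Of all tested genes, 30.6% were higher and 33.1% lower in mesoderm than in endoderm. These shares were 28.4% and 30.0% in endothelium, and 36.0% and 41.8% in erythroid cells.

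Desmosomes are the junctions that anchor intermediate filaments. All 7 tested genes were lower than in endoderm both in endothelium and in erythroid cells, against 30.0% and 41.8% of all tested genes. The desmosomal cadherin Dsg2 was at -4.95 (SE 0.24) and -5.20 (SE 0.15), and the plaque protein Dsp at -3.36 (SE 0.32) and -3.35 (SE 0.17). In mesoderm 4 of 7 were lower, 2 were higher and 1 was not called, against 33.1% lower and 30.6% higher of all tested genes. Dsp was higher there, at 198.8 ± 41.3 CPM against 37.8 ± 6.1 CPM in endoderm (SD, n = 3), by 2.40 (SE 0.15), while Dsg2 was at -1.20 (SE 0.17).

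Catenins and adaptors link cadherins to actin. In endothelium against endoderm 5 of 13 were higher, 1 lower and 7 not called, with the actin linker Vcl at 1.90 (SE 0.17). Of all genes tested there, 28.4% were higher and 30.0% lower. In mesoderm the adaptor Afdn (afadin) was higher by 1.66 (SE 0.14) and Jup (plakoglobin) lower by -1.32 (SE 0.15). The Nectin2 call in mesoderm (-0.27, edgeR adjusted p = 0.0473) did not pass under several settings. In erythroid cells 11 of 13 were lower, against 41.8% of all tested genes, with Jup at -4.05 (SE 0.16).

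Of the endothelial and immunoglobulin-type genes, 11 of 13 were higher in endothelium than in endoderm and 10 of 13 higher than in mesoderm. The shares of all tested genes called higher were 28.4% and 17.8%. The list includes genes chosen as endothelial. The filter kept 13 of its 14 genes in these 2 comparisons but 7 in mesoderm against endoderm, so the counts depend on the class where the genes are high. In endothelium the adhesion ligand Icam2 was at 8.28 (SE 0.32) from endoderm and 7.65 (SE 0.45) from mesoderm. Cd34, a sialomucin of endothelium and blood progenitors, was at 8.07 (SE 0.28) from endoderm. In mesoderm the angiopoietin receptor Tek was above endoderm by 4.74 (SE 0.22) and Jam3 by 4.28 (SE 0.27), whereas F11r (JAM-A) was at -2.36 (SE 0.15), and at -3.55 without the 42 cells. F11r was higher in endothelium, by 0.42 (SE 0.13) from endoderm and 2.74 (SE 0.18) from mesoderm. Emcn had no UMI in mesoderm. Cd34, Tek and Emcn were also among the endothelium markers used to check the class.

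Gap junction genes encode channels between cells. Gja4 (connexin 37), an arterial connexin, was higher in endothelium than in endoderm by 6.45 (SE 0.40) and Gjc1 (connexin 45) higher in mesoderm by 5.44 (SE 0.19). Gjb2 (connexin 26) was lower than in endoderm in mesoderm, endothelium and erythroid cells, at -5.17 (SE 0.41), -5.36 (SE 0.50) and -5.66 (SE 0.32).

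Among the transcription factors that repress E-cadherin and claudin genes, Snai2 had 100.6 ± 11.5 CPM in mesoderm against 1.31 ± 1.09 in endoderm (SD, n = 3), a difference of 6.12 (SE 0.32). It was lower in endothelium than in mesoderm by -6.02 (SE 0.31). Zeb1 was higher than in endoderm in mesoderm (4.22, SE 0.23) and endothelium (5.78, SE 0.26), and Zeb2 in endothelium (4.93, SE 0.22) and erythroid cells (3.42, SE 0.17). Also called higher than in endoderm were Zeb2 and Snai1 in mesoderm, Zeb1 in erythroid cells and Twist1 in endothelium. Zeb1 and Zeb2 were thus both called higher in all of these classes. In erythroid cells Twist1 (-3.94, SE 0.27) and Snai1 (-2.73, SE 0.46) were lower than in endoderm. Of the epithelial factors, Elf3, Esrp1, Esrp2, Klf5 and Ovol1 were lower in mesoderm, endothelium and erythroid cells than in endoderm.

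The genes whose levels ran most alike over the 12 class sums are given as a description, since the sums share tagged samples and classes. They were chosen by Pearson's r of log2(CPM + 1) among 6794 genes with at least 20 CPM in a class, with the gate genes left out. Cdh1 ran closest with Trap1a (r = 0.989), Mpzl2 (0.989) and Grb7 (0.986). Cldn6 ran closest with Asl (0.991), Tnfrsf12a (0.991) and Klf9 (0.988), and Cdh5 with Grap, Oit3 and Nos3 (0.991, 0.991 and 0.990). For Cdh2 they were Cul4b (0.976), Gm45889 (0.971) and the cardiac troponin gene Tnnt2 (0.971).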

How the data were processed

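The values the authors deposited are raw counts of UMIs, in 1 matrix for each of 3 tagged samples. Per the file headers, Cell Ranger 6.1.2 made them, with GRCm38 (mm10) as the build per the submitters' processing notes. How the authors assigned cells to tags is not stated, and no barcode was in more than 1 matrix. Replicates are tagged samples, so p-values measure the spread between these samples. Cells needed 500 genes or more and no more than 10% of UMIs from mitochondrial genes, and were gated into classes, and no doublets were removed in the main analysis. The raw UMIs of each class were summed within each tagged sample (12 sums, 792763 UMIs or more) and 2 classes at a time were compared with edgeR 4.0.16 in R 4.3.3 (quasi-likelihood test, two-sided, TMM scaling, filterByExpr, Benjamini-Hochberg over all tested genes, called at adjusted p under 0.05). The test was run on simulated counts with few changed genes, 4-fold up or down (196 of 10655 for mesoderm against endoderm). That check does not cover data where 63.7% of genes are called, as in that comparison. The SE of a log2 difference was taken from the F statistic. Shares of cells used cells thinned to 10000 UMIs with exact binomial (Clopper-Pearson) 95% intervals, and a count of 0 allows up to 3 counts.

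Same-numbered sums come from the same tagged sample and are therefore paired. The correlation of their deviations was 0.01 to 0.07 in mesoderm and endoderm, 0.03 to 0.11 in endothelium and endoderm, 0.04 to 0.09 in erythroid cells and endoderm and -0.05 to 0.09 in endothelium and mesoderm. Alternatives were the replicate block, DESeq2 1.42.0, other scaling, no filter, 1 fit for all classes, thinned sums, doublet calls by Scrublet (in scanpy 1.11.5) removed, stricter cell filters, gates raised 2-fold and leaving out each tagged sample. Leaving out the 42 trophoblast-list cells, the cardiac-gene cells or all cells over the endothelial share was chosen after seeing the data. The 10 genes and the lists were chosen with earlier results of these data known. All 10 genes are reported, and from each list up to 2 called genes per direction with the largest difference at 20 or more CPM. Reporter transcripts were not analysed here, and some named genes of the lists are not reported here.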

Additional observations from a re-analysis of the deposited data

Results flagged for a closer look

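The 207 cells that passed no gate lie outside the comparisons, and all 10 junction genes were above the limit that a count of 0 allows in them. Their pooled levels were 131.5 CPM for Epcam, 86.2 for Cldn7, 34.3 for Cldn6, 26.7 for Cdh1 and 3.43 for Ocln. The same cells had 46.2 CPM of Cdh5, 30.0 of Pecam1, 27.7 of Cldn5, 14.3 of Esam and 1.93 of Cdh2. Each level was under that of the gene's highest class. These cells were not divided further and were not tested.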

How the results depend on the processing

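Over 499 comparisons of a junction gene under an alternative, 486 kept their direction and their side of the threshold, 9 no longer passed, 3 newly passed and 1 reversed. Some of the 486 could not change, since leaving trophoblast-list cells out of mesoderm does not alter comparisons without mesoderm. Genes that fell under the filter in an alternative were not counted. Cdh1 and Cldn6 in endothelium against mesoderm without the trophoblast-list cells are thus not among the 9. With every sum thinned to the smallest, fewer genes were tested: the junction genes called higher were 0 in mesoderm and 0 in erythroid cells against endoderm, where Cdh2 and Pecam1 were not tested, and those lower in endothelium than in mesoderm 2. In the wider lists, thinning gave 22 lower in mesoderm, 21 lower in endothelium, and 1 higher and 36 lower in erythroid cells against endoderm. Over all genes it gave 1765 higher and 1878 lower in mesoderm, 1913 and 1799 in endothelium and 1908 and 2205 in erythroid cells against endoderm, and 909 lower in endothelium against mesoderm. The count higher in erythroid cells was 2 with no filter and 2 with doublet calls removed, Cdh5 being added, and 1 to 2 when each tagged sample was left out. The count lower in endothelium than in mesoderm was 1 with gates raised 2-fold and 2 to 5 when each tagged sample was left out. It was 0 without the trophoblast-list cells, where Cldn7 turned to 0.31. The replicate block changed no junction gene call, with 2 higher and 5 lower in mesoderm against endoderm as without it. Scaling by library size alone moved the median of all genes by 0.24 in mesoderm against endoderm and by -0.12 in endothelium against mesoderm, and the share of calls that were higher from 48.0 to 62.5% and from 53.3 to 40.7%. Cldn6 and Cldn7 in endothelium against mesoderm did not pass in DESeq2 (adjusted p = 0.0517 and 0.0661). Of 40 shares of cells, 20 moved beyond their interval at 5000 UMIs per cell and 20 at 20000. Depth limits differences of Cdh2, with 5 UMIs in endothelium and 3 in erythroid cells, and of Ocln, with 5 in mesoderm.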
